A study of Homo sapiens with 2 samples.

Results

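Boundaries shared by adjacent contact domains are the positions where 1 domain of the folded genome ends and the next begins with almost no sequence between them. They were taken from the autosomal rows of the domain table, as pairs of domains in which the end of the first and the start of the second differed by at most 20 kb. The boundary was placed at the midpoint, and midpoints within 20 kb of each other were merged. This gave 782 pairs and 727 shared boundaries among 3751 autosomal domains, whose 7502 ends make up the whole set. Of these ends, 1507 (20.1%) were in a pair and 5995 were not. The members were chosen by the listed positions of domain ends, so the number of boundaries and the distances between facing ends describe the rule.

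The data are in situ Hi-C of HEK293T cells, a line derived from human embryonic kidney and expressing the large T antigen of SV40. The only group holds 2 libraries, labelled replicates 1 and 2, of cells fixed with formaldehyde and with no gene altered and no drug given. No control or depleted group is part of the series, and nothing in the labels says that the libraries came from separate cultures. HEK293T is a cultured line with an abnormal chromosome number, so a locus can be present in unequal copies. All 3 deposited tables (compartment scores, contact domains and loops) describe the libraries together, with no column for either, so no spread between replicates exists for any value and no difference could be tested across samples. Depth is known only from the contacts counted in a loop pixel, which ran from 23 to 214 at shared boundaries. Positions are in hg19. The intervals given are 95% counting intervals, Wilson for shares and binomial rank intervals for medians. They treat boundaries as independent and cover counting error only.

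In mammalian cells, cohesin is thought to extrude chromatin loops until it meets the insulator protein CTCF bound in the facing orientation. Extrusion that stops at such sites gives contact domains, and a loop peak forms where the stopped ends of a domain meet. A boundary with a domain on each side is known to hold back contacts between the chromatin on its left and on its right, which can keep an enhancer from genes across it. Larger compartments, A and B, group active and inactive chromatin over megabases.

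The facing domains were most often separated by a few bins of the map rather than abutting. The domain table is on 5 kb bins, and 763 of 782 pairs (97.6%) lay 5 to 20 kb apart. Only 6 pairs met exactly and 13 overlapped. The most frequent distance was 15 kb (237 pairs), followed by 10 kb (208), 20 kb (186) and 5 kb (132). The number declined across the limit of the rule without a break, from 186 pairs at 20 kb just inside it to 164 at 25 kb and 134 at 30 kb just outside. Most boundaries (678) came from 1 pair. The other 49 merged up to 4 pairs, where a nested domain shared an end with the domain that held it.

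**Figure D1:**
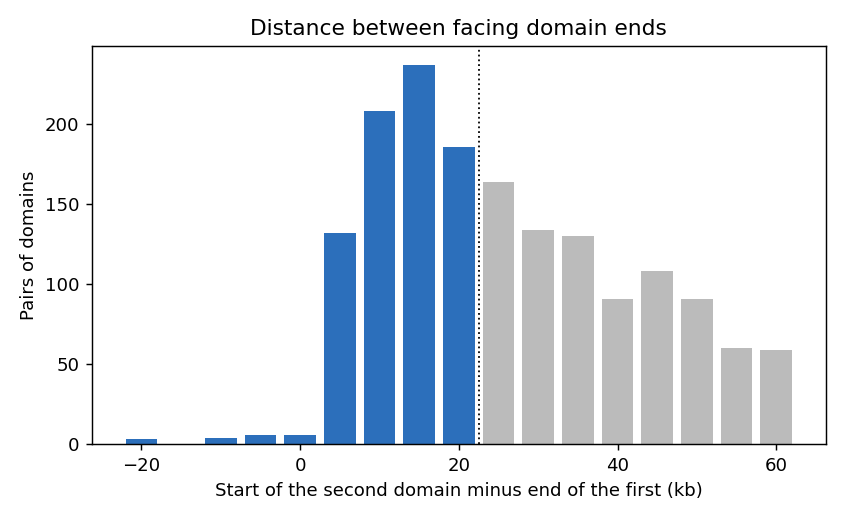
Number of domain pairs (vertical axis) by the start of the second domain minus the end of the first in kb (horizontal axis). Blue bars are pairs that define a shared boundary and grey bars are pairs beyond the 20 kb limit. The count peaks at 15 kb with 237 pairs and falls gradually through the limit (dotted line).

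Shared boundaries were spread unevenly along the chromosomes. The distance from 1 boundary to the next on the same chromosome had a median of 1630 kb, with quartiles of 537.5 and 4267.5 kb. Neighbours under 500 kb apart made up 24.0% of the 705 intervals, and 20.9% were over 5 Mb. The widest interval spanned 42.3 Mb of chromosome 9, between 32572500 and 74887500, a stretch that includes the centromere. Chromosome 6 had the most boundaries (83), ahead of chromosome 1 (80) and chromosome 10 (58). Chromosome 6 was also highest for its number of domains, with 27.7 boundaries per 100 domains. The other autosomes ranged from 10.0 per 100 on chromosome 22 (4 boundaries) to 23.0 on chromosome 8 (45 boundaries).

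Most shared boundaries stood alone, but some followed each other as the consecutive ends of a row of domains. There were 161 domains (4.29%) with both ends shared, and 1185 (31.6%) with 1 shared end. Linked by such domains, the 727 boundaries fell into 566 groups. Of these 447 were lone boundaries, 89 held 2, 21 held 3, 6 held 4 and 3 held 5. In all, 280 boundaries (38.5%) were in a group of at least 2. A group can branch where a nested domain shares an end, so chains were taken as the longest row of boundaries that follow each other.

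Chains of 5 boundaries in 1 row numbered 2, and both lay on chromosome 6. The first comprised 6 domains from 71405001 to 73890000, 145 to 770 kb long with caller scores of 0.899 to 1.37, and 3 of its 5 boundaries had a loop anchor. The second comprised 6 domains from 138010001 to 139680000, 105 to 575 kb long with scores of 0.962 to 1.47. All 5 of its boundaries had an anchor, and 2 of them looped to both sides. Over all 727 boundaries 53.9% had an anchor, and 3 of 5 is close to that share. Each loop at the second chain joined 2 boundaries of that chain, so its 5 anchored boundaries are not separate observations. Of the 6 chains with 4 boundaries, the rule for named regions took the first 2 in chromosome order. On chromosome 6, domains from 6045001 to 8065000 had 1 anchored boundary of 4, and on chromosome 7, domains from 25920001 to 27140000 had 3 of 4. The chromosome 7 row was even, with 5 domains of 160 to 300 kb and scores of 1.33 to 1.57.

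Over all shared boundaries, the lengths of the domains on the left and right were close to unrelated, but this differed with the distance between the domains. Left sides had a median of 210 kb (interval 190 to 230) with quartiles of 130 and 380 kb, and right sides a median of 250 kb (225 to 270) with quartiles of 145 and 425 kb. Boundary by boundary, however, the right side was longer at 365 and the left at 356, with 6 equal. The rank correlation of left and right length was 0.044 over 727 boundaries, given as a description since neighbouring domains share a map and a region. The longer side was a median of 2.03 times the shorter (1.91 to 2.13). At 373 boundaries (51.3%) it was at least 2 times as long and at 130 (17.9%) at least 4 times. As a comparison, 1639 pairs of neighbouring domains 25 to 200 kb apart, in which neither facing end was shared, had a median of 1.83-fold (1.75 to 1.90) and a rank correlation of 0.130.

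This inequality was concentrated at the closest pairs. Where the closest domains were 5 kb apart (133 boundaries), the longer side was 3.07 times the shorter (2.54 to 3.32), with medians of 465 and 130 kb, and the rank correlation was -0.243. At 10 kb the ratio was 2.00 (200 boundaries), at 15 kb 1.82 (220 boundaries) and at 20 kb 1.83 (168 boundaries). Pairs 25 to 50 kb, 55 to 100 kb and over 100 to 200 kb apart gave 1.85, 1.80 and 1.84. The interval at 5 kb thus lay above the values at all the other distances, which ran from 1.80 to 2.00. The rank correlation was negative only at 5 kb. It was 0.112 at 10 kb, 0.194 at 15 kb and 0.0905 at 20 kb. Unshared neighbours had 0.104 at 25 to 50 kb, 0.124 at 55 to 100 kb and 0.163 at over 100 to 200 kb. Overlapping pairs are counted here by the size of their overlap. The sources used here do not name the domain caller, and the part of its calling rules in this pattern was not tested.

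**Figure D2:**
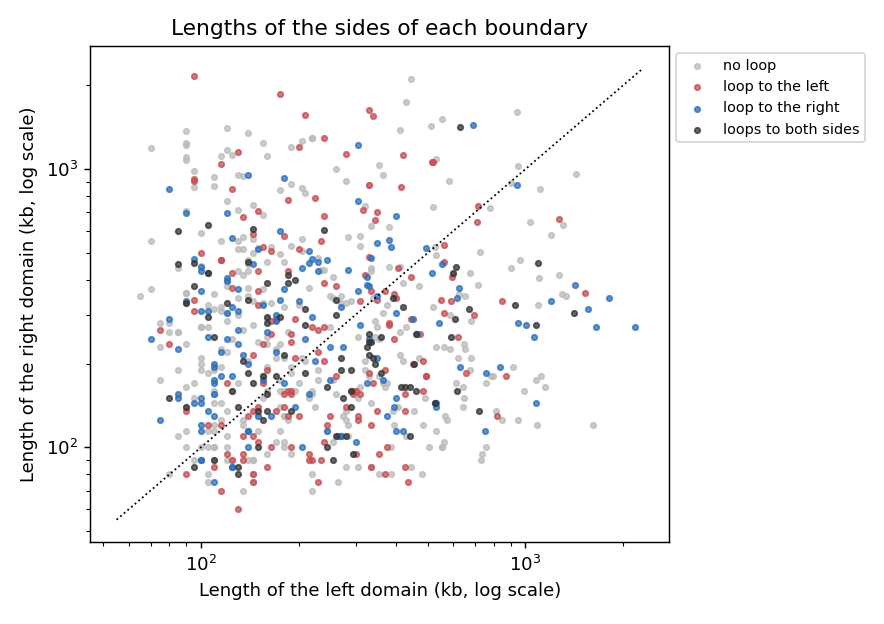
Length of the right domain against length of the left domain in kb at each of 727 shared boundaries, on log axes, with the dotted line marking equal length. Colours give the direction of the loops anchored at the boundary. Points fill the plane on both sides of the line, with a rank correlation of 0.044 over all distances between the domains together.

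The 4 most unequal boundaries all had the short domain on the left. On chromosome 10, at 9352500, a 95 kb domain met a 2170 kb domain, 22.8 times as long. On chromosome 4, at 164472500, the sides were 70 and 1195 kb (17.1-fold). On chromosome 1, at 57285000, they were 90 and 1375 kb (15.3-fold), and on chromosome 5, at 129215000, 90 and 1240 kb (13.8-fold). Of these only the chromosome 10 boundary had an anchor. Its loop, with 39 observed contacts, ran 1430 kb to the left and so passed far beyond the short domain.

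Domains at a shared boundary had slightly higher caller scores than all other domains together, but not than domains whose neighbour lay just outside the limit. The sources used here do not say what the score measures or its scale. The median was 1.18 (1.17 to 1.19) for 2405 domains with no shared end, 1.23 (1.21 to 1.25) for those with 1 and 1.27 (1.21 to 1.33) for those with both ends shared. The median of domains with a shared end was higher on 19 of 22 autosomes. The shift was small against the spread, since the quartiles of domains with no shared end were 1.02 and 1.37. The sides of pairs just inside the limit, 20 kb apart, had a median of 1.24 and those of pairs 25 to 40 kb apart 1.25. Lengths were alike, with medians of 230 kb with no shared end and 235 kb with 1 or both.

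Scores on the left and right of a boundary were only loosely related. The left median was 1.23 and the right 1.25, and the right side scored higher at 391 of 727 boundaries. Their absolute difference had a median of 0.220, and their rank correlation was 0.165, against 0.133 for unshared neighbours 25 to 50 kb apart and 0.0153 for those over 100 to 200 kb apart. Both sides scored above the median of all autosomal domains (1.20) at 240 boundaries (33.0%), 1 side did at 325 (44.7%) and neither at 162 (22.3%).

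The 6 boundaries with the highest score on their weaker side varied in their loops. The first, on chromosome 6 at 126092500, separated a 455 kb domain (125630001 to 126085000, score 1.69) from a 200 kb domain (126100001 to 126300000, score 1.85). A loop closed each of them, with 70 contacts on the left, 3.60 times the donut expectation (Poisson interval 2.81 to 4.55), and 108 on the right (2.29-fold, 1.88 to 2.76). The donut expectation is the contact count expected from the ring of pixels around the loop. The next, on chromosome 9 at 19465000, lay between domains of 410 and 445 kb scoring 1.75 and 1.67. No loop anchor lay within 20 kb of it. A loop of 79 contacts from the boundary at 19920000 ended inside the right domain. On chromosome 2, at 101617500 (scores 1.65 and 1.78), a loop of 63 contacts ran to the left only. On chromosome 17, at 70542500 (1.65 and 1.76), 1 loop ran to the left and 2 to the right, of which the strongest had 107 contacts. On chromosome 4, at 156722500 (1.83 and 1.64), the only loop, with 107 contacts, ran to the right. On chromosome 14, at 34792500 (1.63 and 1.76), a loop of 56 contacts ran 1740 kb to the left, past the 485 kb left domain. So 2 of these 6 looped to both sides, 3 to 1 side and 1 to neither. Over all 727 boundaries 12.2% looped to both sides, 22.1% only to the left, 19.5% only to the right and 46.1% to neither. With 6 boundaries no difference from these shares can be read.

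More than 1 in 2 shared boundaries carried a loop anchor. A loop is a point of raised contact between a pair of anchors, and an anchor was counted when its centre lay within 20 kb of the boundary. This held for 392 of 727 boundaries (53.9%, interval 50.3 to 57.5%). The share at the 5995 ends that are not shared was 24.8%. A shared boundary joins 2 ends, however, and each can bring its own loop. The ends were therefore also compared separately, counting only loops that run from the end into its own domain. Among all 7502 ends 25.8% had such an inward loop. The share was 35.8% (33.5 to 38.3%) at 1507 shared ends and 23.2% (22.2 to 24.3%) at unshared ends, a difference of 12.6 percentage points. If 2 ends each had the unshared share independently, 41.1% of boundaries would carry at least 1 inward loop.

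The inward share was higher at shared ends on 20 of the 21 autosomes with listed loops. Chromosome 12 was the exception, with 19.8% at shared and 22.9% at unshared ends, and only 12 of its 42 boundaries were anchored. Chromosome 7 had the widest gap among chromosomes with more than 30 boundaries, 52.6% against 25.5%. No loop was listed on chromosome 22, which has 4 shared boundaries.

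By distance to the nearest facing domain end, the inward share was highest in the closest class and lowest in the widest. It was 35.8% with the facing end within 20 kb and 26.7% (24.1 to 29.6%) at 25 to 40 kb, just outside the limit. It was 23.3% (21.2 to 25.6%) at 45 to 100 kb, 24.0% (22.3 to 25.9%) at over 100 to 500 kb and 19.7% (17.8 to 21.8%) above 500 kb. The closest class did not overlap the next in its interval, nor did the widest class overlap the class before it. The median caller score was not higher in the closest class (1.24) than at 25 to 40 kb (1.25).

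**Figure D3:**
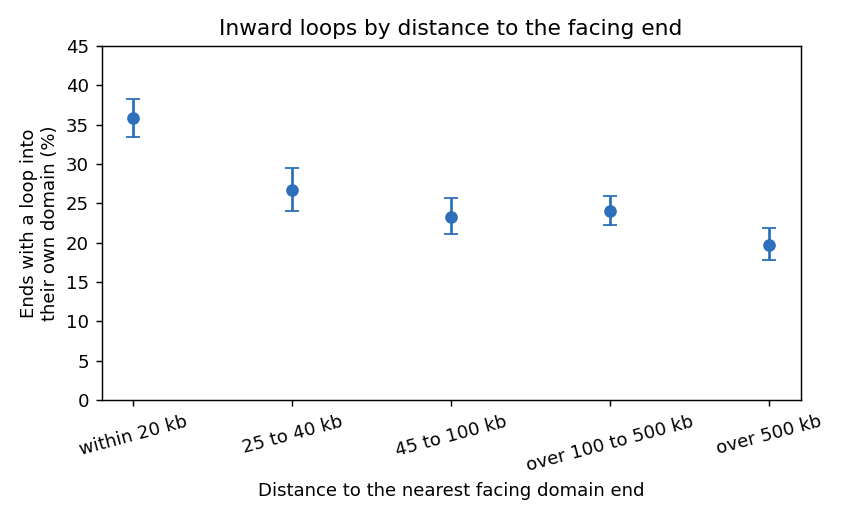
Share of domain ends with a loop into their own domain, in percent, by distance to the nearest facing end of another domain. Points are shares and bars their 95% Wilson intervals. The share is 35.8% within 20 kb and between 19.7 and 26.7% in all wider classes.

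As a further description, the ends were set side by side in classes of score and of length. In the lowest tertile of caller scores the inward share was 17.5% at shared and 10.3% at unshared ends. It was 30.1% and 20.9% in the middle tertile, and 54.5% and 39.6% in the highest. By domain length it was 29.9% against 23.5% up to 150 kb, 42.2% against 26.5% from 150 to 400 kb and 31.3% against 16.8% above 400 kb. The shared ends were higher in all 6 of these classes. The classes divide the same ends by score and again by length, so they are not separate evidence. Score and length still vary within each class, and their part in the difference was not tested. Domains and loops were read from the same contacts, so a loop and a domain end at 1 place are not independent evidence of a boundary.

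Loops ran to the left and to the right about equally often, and a loop to 1 side went with a loop to the other slightly more often than their separate shares give. At 161 boundaries (22.1%) loops ran only to the left, at 142 (19.5%) only to the right and at 89 (12.2%) to both sides, while 335 (46.1%) had none. The product of the separate shares gives 79.4 boundaries (10.9%) with both. Of the 250 boundaries with a leftward loop 35.6% (29.9 to 41.7%) also had a rightward one, against 29.8% (25.8 to 34.0%) of the 477 without, and these intervals overlap. Two-sided boundaries were 22.7% of anchored ones, against 3.43% of anchored ends that are not shared, where no other domain faces the end within 20 kb. Boundaries had up to 3 loops: 275 had 1, 95 had 2 and 22 had 3.

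The side that a loop ran to was usually the side with the higher score. Boundaries with a leftward loop only had a median score of 1.33 on the left (1.28 to 1.38) and 1.17 on the right (1.13 to 1.22). Those with a rightward loop only had 1.22 on the left (1.17 to 1.25) and 1.39 on the right (1.35 to 1.43). The right side scored higher at 56 of 161 of the former and 107 of 142 of the latter. Two-sided boundaries had 1.35 and 1.39, and boundaries with no anchor 1.17 on each side. Whether loop contacts enter the domain score was not tested.

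In most links of these loops to a boundary, the loop closed the domain next to that boundary. A link is 1 loop counted at 1 boundary. The 392 anchored boundaries held 531 links to 457 loops, which are 31.1% of the 1471 autosomal loops. The far anchor lay within 20 kb of the far end of a domain at the boundary in 384 links (72.3%, 68.4 to 76.0%). In 96 (18.1%) it lay beyond that domain and in 51 (9.60%) inside it. The 74 loops with a shared boundary at each anchor enter these counts once from each side, so the links are not independent. The closing share of loops at unshared ends is not given here. Closing is therefore not shown to be particular to shared boundaries. Loops that closed a domain had a median length of 240 kb, those ending inside 300 kb and those reaching beyond 505 kb. The far anchor closed a domain in 70.0% of leftward and 74.8% of rightward links, and lay beyond it in 17.2% and 19.0%. It lay inside in 12.8% (9.36 to 17.3%) of leftward and 6.20% (3.85 to 9.84%) of rightward links, with intervals that overlap slightly. A further boundary of the same kind stood at the far anchor of 74 loops (16.2%). Of all 7502 domain ends 20.1% were shared, so the share of these loops was not above that of ends. Not every far anchor lies at a domain end, so the shares are only a rough scale for each other. Of these 67 joined neighbouring shared boundaries and 7 passed over 1 in between.

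The contacts and enrichment of these loops were close to those of the other loops. Among loops up to 2 Mb, the 457 at shared boundaries had a median of 79 observed contacts (76 to 83) and an enrichment over the donut expectation of 2.70-fold (2.65 to 2.76). The other 941 had 74 contacts (72 to 77) and 2.66-fold (2.62 to 2.71). Median length was 270 kb in both. None of the 73 autosomal loops over 2 Mb had an anchor at a shared boundary.

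Anchors mostly stood on the side of the boundary to which they looped, a placement that the rule itself favours. The boundary is the midpoint between facing ends, so an anchor at the end of the domain it loops into lies on that side. The same holds for the order of anchors at two-sided boundaries. Of 273 anchors of leftward loops, 216 (79.1%) were centred left of the boundary, 32 right of it and 25 on it. Of 258 anchors of rightward loops, 249 (96.5%) were centred right of it, 4 left of it and 5 on it. The median offset was -5 kb for leftward and 10 kb for rightward loops. Anchors were 5 kb (84 links) or 10 kb wide (447 links), so the unequal offsets differ by no more than a bin. At 82 of the 89 two-sided boundaries the strongest rightward loop was anchored to the right of the strongest leftward one, at 7 they had the same centre, and at none was the order opposite. Their centres were a median of 12.5 kb apart (10.0 to 17.5), with a largest distance of 40 kb. In 46 the anchors were apart, in 34 they were in touching bins and in 9 they overlapped. Which CTCF sites lie there was not analysed here.

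**Figure D4:**
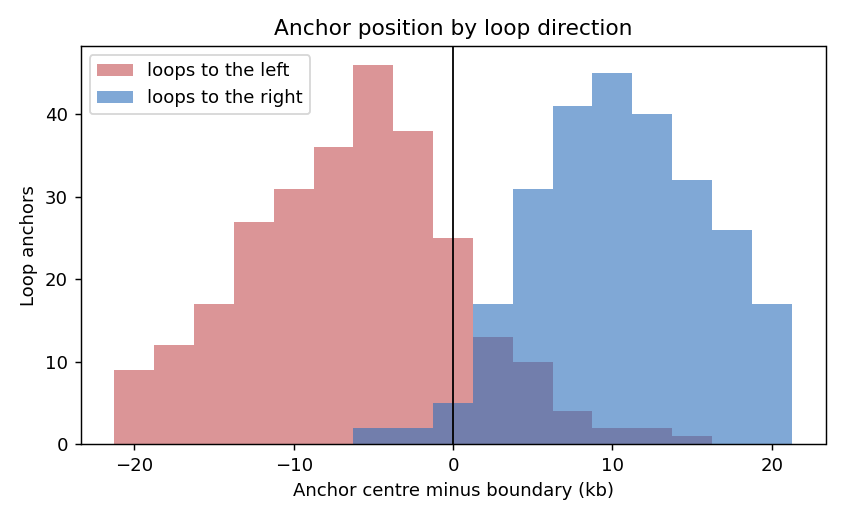
Number of loop anchors by the position of the anchor centre relative to the boundary in kb, for 273 leftward (red) and 258 rightward (blue) loops; only anchors within 20 kb are counted. Leftward loops are centred on -5 kb and rightward loops on 10 kb.

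Few shared boundaries were crossed by a loop, though a larger share than of unshared ends. Loops up to 2 Mb with an anchor more than 20 kb away on each side spanned 72 boundaries (9.90%, 7.94 to 12.3%), against 6.91% (6.29 to 7.58%) of unshared ends. The midpoints of domains with a shared end were spanned in 39.8%, as loops that close a domain must span its midpoint. Boundaries with leftward loops or with both were crossed more often than those without an anchor. The share was 5.37% (3.43 to 8.33%) with no anchor, 14.3% (9.71 to 20.5%) with leftward loops only and 18.0% (11.4 to 27.2%) with both. With rightward loops only it was 10.6% (6.51 to 16.7%), an interval that overlaps the one for no anchor. A larger listed domain enclosed 37 boundaries (5.09%), as it did 5.24% of unshared ends. The sides of the enclosed boundaries were short, with medians of 135 and 110 kb, against 220 and 255 kb at the 690 not enclosed. Lengths of other nested domains are not given here. Of the 37 enclosed boundaries 20 (54.1%) were anchored, close to the 53.9% of those not enclosed.

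All 22 boundaries with 3 loops had them split between the sides, and the 6 with the highest summed contacts are described here. On chromosome 4, at 89135000, leftward loops of 360 kb (65 contacts) and 180 kb (129 contacts) met a rightward loop of 290 kb (117 contacts, 3.17-fold, 2.62 to 3.80). The shorter leftward loop closed the 175 kb left domain (88955001 to 89130000) and the longer passed it. On chromosome 13, at 77052500, leftward loops of 780 and 595 kb had 95 and 98 contacts, and a rightward loop of 420 kb had 108. On chromosome 15, at 81561250, the leftward loops had 93 and 66 contacts and the rightward loop, 120 kb long, had 127. The other 3 had 1 loop to the left and 2 to the right. On chromosome 1, at 64718750, they had 114 contacts to the left and 83 and 87 to the right. On chromosome 5, at 58675000, they had 101 and then 87 and 96, and on chromosome 1, at 23412500, 126 and then 68 and 75. In each of these 6 the 2 loops on the same side had the same or overlapping anchors at the boundary. As separately listed loops they had to differ in length, so 1 stopped short of the other.

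Two-sided boundaries were also ranked by contacts in their weaker direction, a choice that by itself favours sides of like strength. The first was on chromosome 14 at 21158750, between domains of 80 and 150 kb, with 123 contacts to the left (2.60-fold, 2.16 to 3.11) and 134 to the right (2.79-fold, 2.34 to 3.30). The chromosome 4 boundary at 89135000 came next. The third, also on chromosome 4, at 154051250, had 115 contacts to the left and 138 to the right between domains of 290 and 190 kb. The fourth, on chromosome 6 at 32372500, had 114 and 134 between domains of 160 and 390 kb that were only 5 kb apart.

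Shared boundaries were more frequent in bins of positive compartment score, by a margin close to that of other domain ends. The compartment table gives 1 score per 1 Mb bin, and the sources used here do not say which sign is compartment A. Of 727 boundaries, 474 (65.2%, 61.7 to 68.6%) lay in positive bins, which made up 50.5% of signed autosomal bins. Positive bins held 0.344 boundaries for each Mb, 1.84 times the density of negative bins (0.187). Of unshared ends, 64.5% (63.3 to 65.7%) lay in positive bins, which is inside the interval of the shared boundaries. Positive bins had the higher density on 19 of 22 autosomes, all but chromosomes 5, 14 and 17.

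On chromosomes 5, 11, 13, 14 and 22 the score is carried by a few bins, with over 20% of the squared score in the top bin. On the other 17 autosomes the ratio was 2.15, and positive bins had the higher density on 16, all but chromosome 17. Chromosome 6 had 0.772 per Mb in its positive bins and 0.244 in its negative bins, chromosome 1 had 0.519 and 0.197, and chromosome 8 had 0.508 and 0.167. On chromosome 17 the values were 0.370 and 0.441. On those 17 autosomes 21.0% (19.8 to 22.3%) of domain ends in positive bins and 19.6% (17.9 to 21.3%) of those in negative bins were shared, so an end was about as likely to be shared under either sign. The share of boundaries in positive bins was above that of unshared ends on 9 of the 17.

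**Figure D5:**
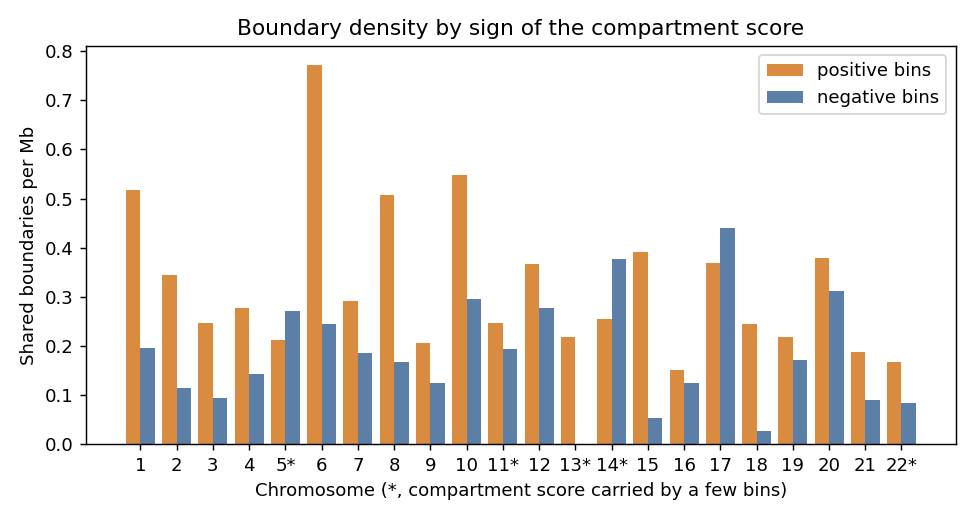
Shared boundaries per Mb of scored bins, by chromosome, in bins of positive (orange) and negative (blue) compartment score; asterisks mark chromosomes whose score is carried by a few bins. Positive bins are higher on 19 of 22 autosomes, most on chromosome 6 with 0.772 against 0.244 per Mb.

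The density rose with the rank of the score and levelled off at the top. Bins were ranked within each chromosome, leaving out chromosome 4, whose sign follows its arms, and the 5 chromosomes with few-bin scores. From the lowest to the highest quintile of bins there were 0.104, 0.187, 0.317, 0.400 and 0.373 boundaries per Mb. No density of unshared ends by quintile is given here, so the gradient is not shown to be particular to shared boundaries. Domains beside boundaries in positive bins were shorter, with a median of 205 kb (190 to 220) against 290 kb (255 to 325) in negative bins. Their scores were close, 1.25 and 1.22. Lengths of other domains by sign are not given here. Anchored boundaries were 55.9% (51.4 to 60.3%) in positive and 50.2% (44.1 to 56.3%) in negative bins, and two-sided boundaries 12.2% and 12.3%. At single ends the difference between shared and unshared held under both signs, with inward loops at 37.0% against 23.9% in positive bins and 33.6% against 22.0% in negative bins.

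Shared boundaries rarely divided domains of opposite compartment sign, at a share close to that of other neighbouring domains. The sides were assigned by their midpoints. They differed in sign at 53 boundaries (7.29%, 5.62 to 9.41%), against 8.11% of the 1639 neighbouring pairs that share no boundary. At 469 boundaries both midpoints fell in the same 1 Mb bin and could not differ. Among the other 258 the share was 20.5% (16.1 to 25.9%), against 20.3% (17.4 to 23.6%) of neighbours in different bins. By distance between midpoints it was 3.11% against 4.51% up to 200 kb, 8.08% against 6.37% at 200 to 400 kb, 9.76% against 9.46% at 400 to 800 kb and 11.1% (4 of 36) against 20.4% (20 of 98) above 800 kb. The intervals overlapped in each class and the order was not the same in all. At 1 Mb the compartment table cannot place a switch at a boundary.

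Of the 53 boundaries between signs, 26 (49.1%, 36.1 to 62.1%) were anchored, against 54.3% (50.5 to 58.0%) of boundaries with sides of 1 sign. The left side was the positive one at 30. The negative side was the longer at 33, with a median of 315 kb (240 to 470) against 250 kb (170 to 330) for the positive side. Outside the chromosomes with few-bin scores, the widest step in rank was on chromosome 12 at 75897500. Its left domain (75725001 to 75890000) had a score of -0.118 and the right (75905001 to 76430000) 0.00327, ranks of 4.55 and 55.3 in percent of the bins of that chromosome. On chromosome 10, at 96082500, the score went from 0.0881 on the left to -0.0416 on the right. On chromosome 6, at 72077500, inside the first chain of 5, it went from 0.0231 to -0.0841, and on chromosome 8, at 131120000, from -0.0952 to 0.00368. None of these 4 had a loop anchor.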

How the data were processed

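The build was hg19, and the tools listed are BWA 0.7.8, FastQC 0.11.7 and Picard, per the submitters' processing notes. The sources used here do not name the domain caller or compartment method, or how replicates were combined. The authors' deposited score per domain and compartment score per 1 Mb bin were used as they stand. HiCCUPS loops at 5 and 10 kb were merged, as the name of the deposited table says. That table holds observed counts of contacts and the signal expected from local neighbourhoods, of which the donut was used, per the file headers. Total depth per library is unknown here.

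The left side of a boundary is the shortest domain ending there, and the right side the shortest starting there. Domain starts and ends are counted from 1, and a boundary position is the midpoint between facing ends. Enrichment is observed over donut-expected contacts, with an exact Poisson interval and the expectation held fixed. Unshared neighbours are the next domain 25 to 200 kb downstream. Chromosome X was left out by the rule. Named regions are the 6 with the highest weaker-side score, the 6 with most loops (ties by summed contacts), the 4 longest chains (ties in chromosome order), the 4 two-sided with most contacts in their weaker direction, the 4 most unequal and the 4 with the widest sign step. The members and lists were chosen with earlier results of these data known. The alternatives were other distances for shared ends and anchors, nested or low-scoring domains left out, the longest domain per side, loops over 2 Mb left out and chromosomes left out. The boundary search was tested on simulated data. Python 3.11.15, numpy 2.4.6, pandas 2.3.3 and scipy 1.17.1 were used. No genome or gene table of hg19 was used here, so no sequence or gene is given.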

Additional observations from a re-analysis of the deposited data

How the results depend on the processing

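Of 48 alternative values, 33 stayed within the interval (or, for the count, within 1.5 times) of the reported value and 15 moved out of it. With shared ends at most 10 kb apart there were 339 boundaries, the longer side was 2.45 times the shorter and 27.3% of anchored boundaries were two-sided. With at most 40 kb there were 1201 boundaries, 42.8% were anchored, and inward loops differed by 9.67 percentage points. A midpoint can then lie up to 20 kb from each end, and the anchor window was not widened with it. Its part in the lower anchored share was not tested. With domains scoring above the median only, there were 246 boundaries with a length ratio of 1.81, a median score of 1.40, 70.7% anchored, 31.0% of those two-sided and 69.9% in positive bins. With anchors within 10 kb, 37.4% were anchored and 17.3% of those two-sided, and within 50 kb 59.3% were anchored. The inward share stayed higher at shared ends in all 7 alternatives run on it, which were added after the data were seen, by 9.67 to 14.8 percentage points. Leaving out nested domains, loops over 2 Mb or chromosomes with few-bin scores moved no value out of its interval. No loop over 2 Mb had an anchor at a shared boundary, so leaving these loops out could not change the anchored or two-sided share. Both shares are counted among the 33. No paired analysis was possible because the tables hold no value per library, and for the same reason neither replicate could be left out. The contacts in a loop pixel are the only depth given.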
